A study of Rattus norvegicus with 120 samples.

Results

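The cytosolic ribosomal protein genes encode the protein part of the cytoplasmic ribosome. They were taken here as all genes whose array symbol is Rpl or Rps followed by a digit, or Rplp0, Rplp1, Rplp2 or Rpsa, with the S6 kinase symbols left out. A probe set (a group of probes summarised to 1 value) counted only where it was annotated to 1 symbol alone, and the probe set of highest mean stood for the gene. This gave 50 genes on 57 probe sets, out of 14218 genes with a symbol of their own. Of the 50, 46 had a mean at or above the filter of 4.28 on the log2 scale, beside 12326 genes of any kind. The probe sets of Rpl28, Rpl30, the paralog Rpl39l1 and the pseudogene Rps4x-ps1 lay below it and were not tested. Another 36 probe sets listed a ribosomal protein symbol together with other symbols and were left out.

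The samples were whole eyes of 120 male rats aged 12 weeks, all F2 animals of an intercross of SR/JrHsd with SHRSP, inbred strains of which the second is stroke-prone and hypertensive. The pooled RNA of an animal's eyes was put on 1 Affymetrix array, with no replicate array, so the spread between animals includes the error of a single measurement. The labels form 1 group with no treatment, and the study was laid out to map loci that set expression levels. Sample titles carry an S code (10 codes of 11 to 13 arrays, treated here as processing sets) and an L code (22 codes of 2 to 11 arrays, meaning not given).

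Eye tissue markers were clear on all arrays. The lens crystallin gene Cryaa lay between 13.6 and 14.3 on the log2 scale, the rod gene Sag between 13.1 and 13.6, and the skeletal muscle gene Acta1 between 11.4 and 12.4. The rod genes Nrl and Nr2e3 had no probe set with 1 symbol and were not analysed here. The 75th percentile of an array ran from 7.11 to 7.70. The array of animal 63, 1 of 3 that the titles mark as rescanned, was the lowest at 7.11, and the next was at 7.38.

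A ribosome joins a small 40S subunit, which reads the messenger RNA, to a large 60S subunit, which makes the peptide bonds. Each subunit holds 1 copy of nearly all of its proteins, and surplus unassembled protein is degraded. The messages of these proteins are controlled together. They begin with a C followed by a run of pyrimidines, the 5′ terminal oligopyrimidine (TOP) tract, through which mTOR signalling and the protein LARP1 set their translation.

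Start site windows of members whose behaviour the results turn on are shown here, from RefSeq on build GRCr8, 5′ to 3′ on the gene's strand, from 25 bases before the annotated start to 25 after it. Capitals mark the longest run of C followed by at least 5 C or T letters. Rpl5, Rpl35 and Rps28 stand for members that rose with the actin measure described below, Rplp0 and Rps3 for members that fell with it, and Rpl35a for those that passed in neither direction. Rpl41 shows a window with no such run, and Rpl3l is the muscle paralog.
Rpl5 (chr14:1995201-1995250, minus strand): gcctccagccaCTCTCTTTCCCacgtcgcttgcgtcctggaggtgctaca
Rpl35 (chr3:43165897-43165946, minus strand): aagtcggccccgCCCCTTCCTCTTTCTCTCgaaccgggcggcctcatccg
Rps28 (chr7:15311309-15311358, minus strand): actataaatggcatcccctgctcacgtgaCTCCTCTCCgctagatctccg
Rplp0 (chr12:46718366-46718415, minus strand): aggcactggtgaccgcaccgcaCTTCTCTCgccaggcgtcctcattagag
Rps3 (chr1:163195752-163195801, minus strand): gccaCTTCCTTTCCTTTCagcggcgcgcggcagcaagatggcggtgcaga
Rpl35a (chr11:81234997-81235046, minus strand): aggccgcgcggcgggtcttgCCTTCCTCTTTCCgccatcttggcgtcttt
Rpl41 (chr7:1563473-1563522, minus strand): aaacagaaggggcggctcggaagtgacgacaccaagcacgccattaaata
Rpl3l (chr10:14258421-14258470, plus strand): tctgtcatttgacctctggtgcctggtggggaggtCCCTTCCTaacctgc

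RefSeq held a window for 41 of the 50 members. A run of this kind was found in 31 of the 41 (75.6%), against 33.9% of all 33469 promoter windows of the same length. Among the 35 members that are not paralogs or pseudogenes it was found in 29 (82.9%), and among the 6 paralogs in 2 (33.3%). The runs were 6 to 21 letters long, with a median of 12. The fixed list of translation factors and other TOP messages reached 84.2%, mitochondrial ribosomal protein genes 41.0% and ribosome assembly genes 23.1%. In the 300-base promoters, CCGGAAG or its reverse complement CTTCCGG occurred in 10 members (24.4%), against 8.75% of all promoters and 15.7% of those of genes above the filter. The share was 61.5% for ribosome assembly, 43.8% for ribosomal RNA synthesis, 42.9% for growth control, 32.8% for mitochondrial ribosomal proteins and 15.8% for the TOP list. These are matches of letters and show no binding.

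Most canonical ribosomal protein genes varied little between animals. With S code means taken out, the median SD was 0.0699 over the 46 members and 0.1485 over all genes. A strong signal goes with a small SD on these arrays, so the members were also set beside the other genes whose mean lay at or above the members' lower quartile, whose median SD was 0.0882. Of the members, 38 had a mean of at least 11 (11.2 to 13.2), and 30 of these had an SD under 0.0882. Whether signals near the top of the scale narrow the spread was not tested. Probe sets differ in how strongly they bind, so these means do not order the genes by abundance. The plot of SD by gene shows most canonical members at the low end and most of the 6 paralogs or pseudogenes at the high end. All 6 had a mean under 11, so gene class and signal level go together here. The paralog Rpl7l1 had an SD of 0.1125, below canonical Rps13, Rpsa and Rpl39.

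**Figure D1:**
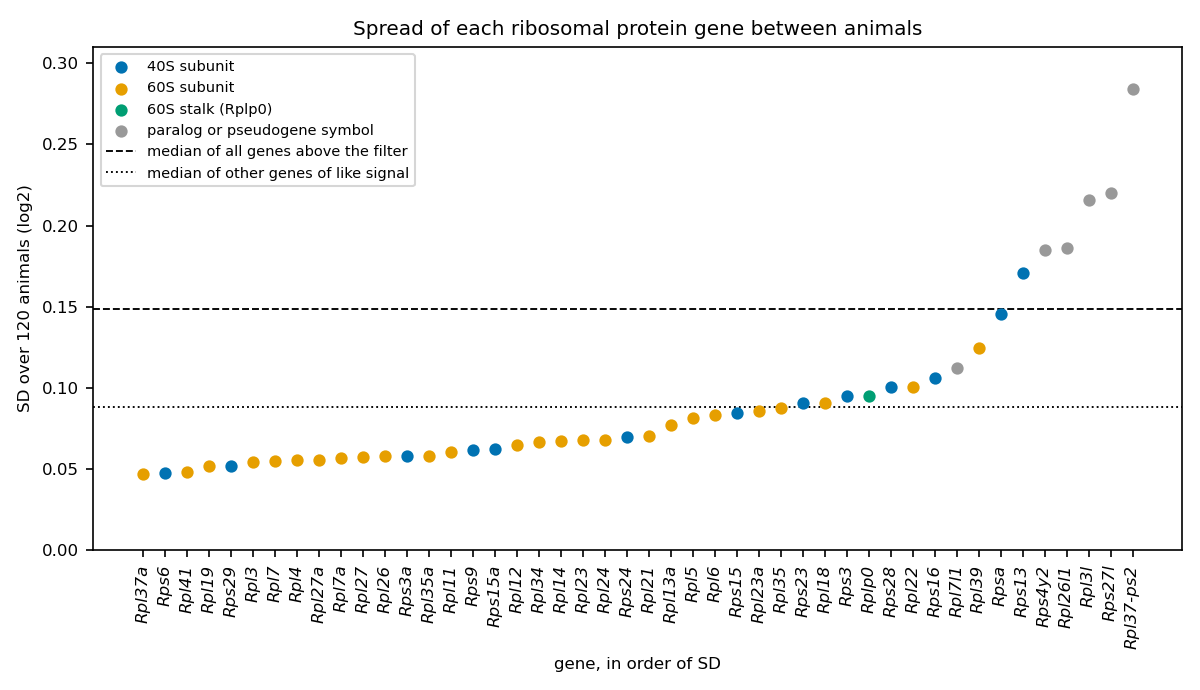
SD of the log2 level over 120 animals, S code means removed, for each of 46 genes in order of SD (points coloured by subunit, grey for paralog or pseudogene symbols). The dashed line is the median of all genes (0.1485) and the dotted line that of the other genes of like signal (0.0882); the points run from 0.0469 for Rpl37a to 0.284 for Rpl37-ps2.

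The steadiest member was Rpl37a, a zinc-binding 60S protein. Its level was 12.61 in the lowest animal, 12.79 in the median and 12.92 in the highest (SD 0.0469, n = 120). The lowest and highest animals thus lay close together, and the lowest was animal 63. Rps6, the 40S protein that S6 kinases phosphorylate downstream of mTOR, ran from 12.25 through a median of 12.50 to 12.63 (SD 0.0475). Rpl41, the smallest 60S protein, ran from 12.40 through 12.66 to 12.79 (SD 0.0482). Both were again lowest in animal 63. Rpl19, Rps29 and Rpl3 followed with SDs of 0.0516, 0.0519 and 0.0540. Rpl3 lies near the peptidyl transferase centre of the 60S subunit.

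At the other end stood 5 paralogs or pseudogenes and 1 canonical gene with a weak probe set. The pseudogene Rpl37-ps2 ran from 4.38 through a median of 4.93 to 6.09 (SD 0.284), and its highest animal was 15. Rps27l, a paralog of Rps27 that p53 induces, ran from 4.40 through 5.40 to 5.95 (SD 0.220). Rpl3l, the form of Rpl3 found in striated muscle, ran from 6.71 through 7.31 to 7.90 (SD 0.216). Rpl26l1, a close copy of Rpl26, had an SD of 0.186, the S4 paralog Rps4y2 had 0.185 and the 40S gene Rps13 had 0.171. Their SDs lay above the median of all genes. Rps13 and Rpl39 were the 2 canonical members with a mean under 11, at 4.73 and 7.01.

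The lowest and highest animals differed at least 2-fold for 5 of the 46 members, against a background of 45.3% of all genes. All 5 had a mean under 11. These were Rpl37-ps2 (3.27-fold), Rps27l (2.93-fold), Rpl3l (2.29-fold), Rpl26l1 (2.13-fold) and Rps13 (2.05-fold). Without animal 63 the count was 4, and the background was 26%. Of the 38 members with a mean of at least 11, 0 reached 2-fold, beside 2.42% of the other genes of like signal. The widest of the 38 was Rpsa at 1.85-fold. Rpsa, the 40S protein also known as the laminin receptor, ran from 11.09 through 11.78 to 11.98 (SD 0.146). Its other probe sets followed it closely, with r of 0.922 and 0.774 over the 120 animals (rho 0.892 and 0.705). The permutation p was 1e-05 for each, the smallest that 100000 permutations within sets can give (two-sided, 1.39e-05 adjusted over 32 relations). Among the 32 are pairs and other genes picked for extreme r, which lowers the adjusted values of the rest. The r of the Rpsa probe sets was 0.912 and 0.733 without the 2 animals farthest out.

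Other genes with more than 1 probe set gave less even pictures. The second probe set of Rps24, a 40S protein, had r of 0.598 with the first (rho 0.480, permutation p 1e-05, adjusted 1.39e-05) and 0.530 without animal 63, 1 of the 2 animals farthest out. For Rpl3, Rpl7 and Rpl14 the second probe sets had r of 0.143, 0.0917 and -0.0860 with the first, and that of Rpl14 was below the filter. Their permutation p-values were 0.131, 0.276 and 0.325 (adjusted 0.150, 0.294 and 0.325). For Rpl7l1, a paralog of Rpl7 that acts in the nucleolus, r was 0.121 (permutation p = 0.228, adjusted 0.252). A result for one of these genes is thus a result for the probe set used.

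Animal 63 stood apart. It was lowest for 30 of the 38 members with a mean of at least 11 and below its set mean for all 38. Its mean shift over them was -0.306 on the log2 scale, equal to 1.24-fold lower. The next lowest was animal 10 at -0.0814, and the highest was animal 77 at 0.102. The SD of the shift over animals was 0.0409, and 0.0298 without animal 63. The shift of the 46 members moved with the 75th percentile of the array (r = 0.750, rho = 0.484, and r of 0.453 without animal 63). It was the lowest of 120 for the scores of pigment, ocular surface, fibroblast, gland and cell cycle markers, while its red blood cell score lay above its set mean, at 1.11. The share of these in its low ribosomal protein signal was not tested.

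**Figure D2:**
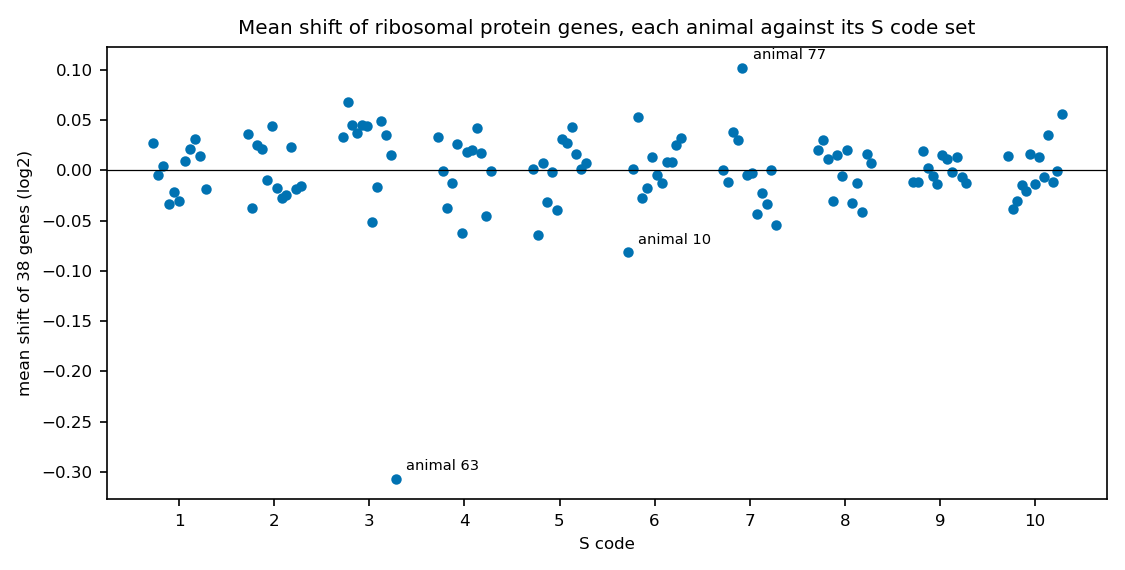
Each point is 1 of 120 animals, placed by S code, with the mean shift of 38 ribosomal protein genes from the mean of the animal's own set (log2). Animal 63 lies at -0.306, and all others lie between -0.0814 (animal 10) and 0.102 (animal 77).

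Levels differed between S codes for most members, as for most genes. In limma's moderated F test across all 23326 probe sets, with Benjamini-Hochberg adjustment at 0.05, 41 of the 46 members were called, against a background of 92.8%. The 5 not called were Rpl14, Rpl39, Rps13, Rps3 and Rps4y2. The largest F was that of Rps27l, which averaged 4.96 in set 4 but 6.12 in set 2, and S codes took up 73.6% of its variance. Rps28, a 40S protein, averaged 11.57 in set 8 but 12.02 in set 3 (71.2%). Next came 2 further 40S genes, Rps15a (12.20 in set 3 to 12.45 in set 10, 65.2%) and Rps3a (12.33 in set 4 to 12.58 in set 10). The median gap between the lowest and highest set was 0.170 over the members, 0.338 over all genes and 0.205 over the other genes of like signal. As a share of variance the order differed. The median share of the S codes was 36.2% over the members, 31.3% over all genes and 28.7% over those of like signal. The L code test, with the S code as covariate, called none of 46, against a background of 5.35%. At an unadjusted p under 0.05 it took 3 members (Rpl7l1, Rps23 and Rpl13a), against 22.5% of all genes.

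The RNA of these eyes differed in how far the signal fell off toward the 5′ end, and some ribosomal protein genes rose with this measure while others fell. Arrays of this kind carry beta-actin control probe sets at the 3′ and 5′ ends of the message, and their log2 difference rises as RNA is shorter or labelling stops earlier. It ran from 0.796 through a median of 1.17 to 1.72 over the animals. Slopes on it were tested with limma, with the S code as covariate. Of the 46 members, 22 rose with the difference (background 47.7%) and 9 fell (background 16.9%). Of the other genes of like signal, 26 rose (21%) and 28 fell (22.6%). The shares of members called lay near the background in both directions. The GAPDH control difference, which had r of 0.899 with that of actin, gave 22 and 9 as well.

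Rpl5, the 60S protein that carries 5S ribosomal RNA into the ribosome and binds Mdm2 when free, followed the difference most closely. It ran from 12.06 through a median of 12.49 to 12.77, lowest in animal 63 and highest in animal 20. Its slope was 0.38 ± 0.041 (SE, n = 120) per log2 unit (limma adjusted p = 3.91e-14), and the actin difference took up 48.1% of its variance within sets. The correlation was positive in all 10 sets. Rpl22 (slope 0.38 ± 0.055), Rps28 (0.39 ± 0.054) and Rpl35 (0.35 ± 0.048) rose with it too, and Rpl35 sits beside the exit tunnel for nascent peptides. Rps28 had a positive r in all 10 sets, but with set means left in, its slope was 0.05 and the limma adjusted p was 0.562. Under its other alternatives the adjusted p lay between 1.12e-13 and 4.71e-07. The steepest rising slopes of all were those of weak probe sets, Rpl37-ps2 (0.62 ± 0.17), Rps27l (0.47 ± 0.13) and Rpl26l1 (0.47 ± 0.11).

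Rpsa fell most, with a slope of -0.55 ± 0.078 (limma adjusted p = 1.40e-09). It was negative in 9 of 10 sets, and its other probe sets had r of -0.519 and -0.432 with the difference. Rps3, a 40S protein at the entry of the messenger RNA channel, ran from 11.72 through a median of 12.17 to 12.30, lowest in animal 15. Its slope was -0.35 ± 0.053 (limma adjusted p = 9.97e-09), and it was negative in all 10 sets. Rplp0, the base of the 60S stalk that recruits elongation factors and a common reference gene in PCR, ran from 11.77 through 12.23 to 12.41, again lowest in animal 15. Its slope was -0.34 ± 0.054, negative in all 10 sets. Rps16, Rps15, Rpl6, Rpl18 and Rpl12 fell as well, with slopes from -0.30 to -0.14. For Rpl7l1 the 2 probe sets went opposite ways, with r of -0.554 for the one used and 0.498 for the other.

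Both subunits held rising and falling members, beside 47.7% of all genes rising and 16.9% falling, and 21% and 22.6% of those of like signal. Of the 12 members of the 40S subunit with a mean of at least 11, 6 rose, 4 fell and 2 were not called. Of the 26 of the 60S subunit, Rplp0 included, 10 rose, 4 fell and 12 were not called. The pyrimidine run was found in 11 of 12 rising, 7 of 8 falling and 8 of 12 uncalled members with a window.

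**Figure D3:**
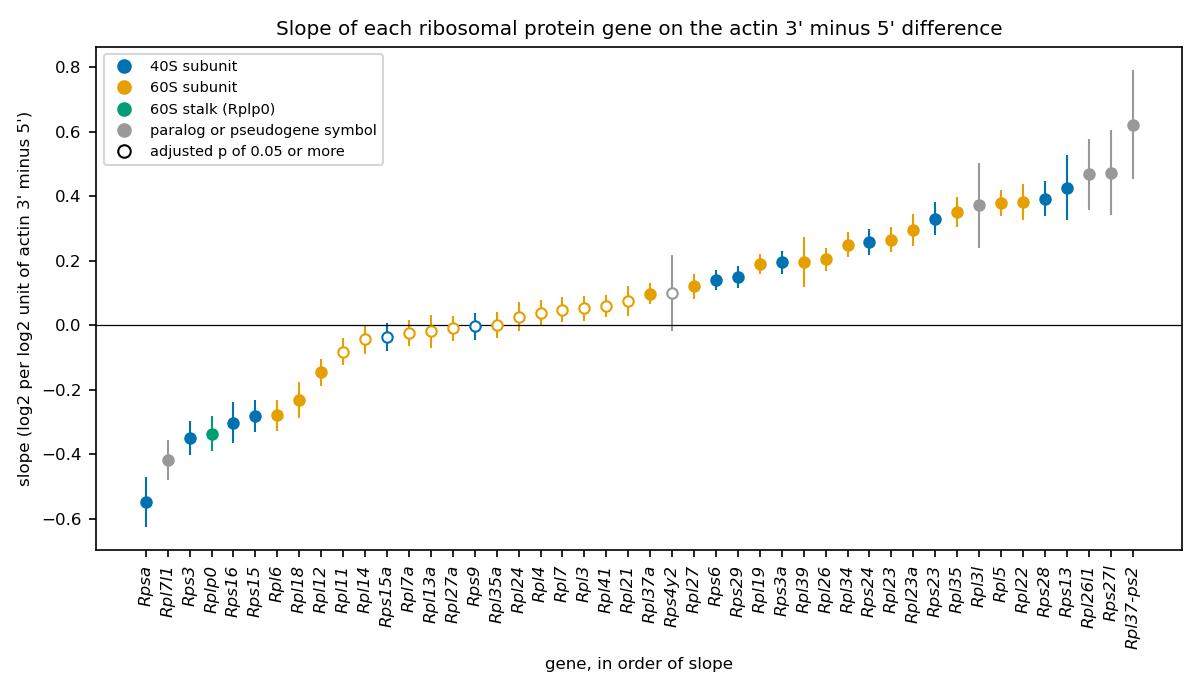
Slope of each of 46 genes on the actin 3′ minus 5′ difference (log2 per log2 unit, S code as covariate), in order of slope, with bars of 1 SE (n = 120). Filled points passed an adjusted p of 0.05: 9 genes from Rpsa (-0.55) to Rpl12 (-0.14) fell and 22 rose, up to Rpl37-ps2 (0.62).

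Most pairs of members had a positive r. Among the 38 with a mean of at least 11, 603 of 703 pairs were positive, but of the 128 pairs of a rising with a falling member 34 were. The median r over the 1035 pairs of members was 0.281, and 81.3% of pairs were positive. Over all pairs of genes the median was 0.0655, with 59.5% positive, and over the 7626 pairs of other genes of like signal it was 0.151, with 76.7% positive. Without animal 63 the medians were 0.144, 0.0320 and 0.0714, and 68.7%, 55.5% and 63.6% of pairs were positive. Rising and falling members were sorted into blocks by their slopes on the same measure in these same animals. A positive r within a block and a lower r between blocks thus follow in part from the sorting. The 16 rising members with a mean of at least 11 had a median r of 0.681 among themselves (lowest pair 0.422). The 8 falling members had 0.669 (lowest pair 0.439). Between the blocks the median was -0.135, and -0.276 without animal 63. With the actin difference regressed out it was 0.159, and 0.00636 without animal 63 as well. Within the blocks it was then 0.580 and 0.590, and 0.474 and 0.521 without animal 63.

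**Figure D4:**
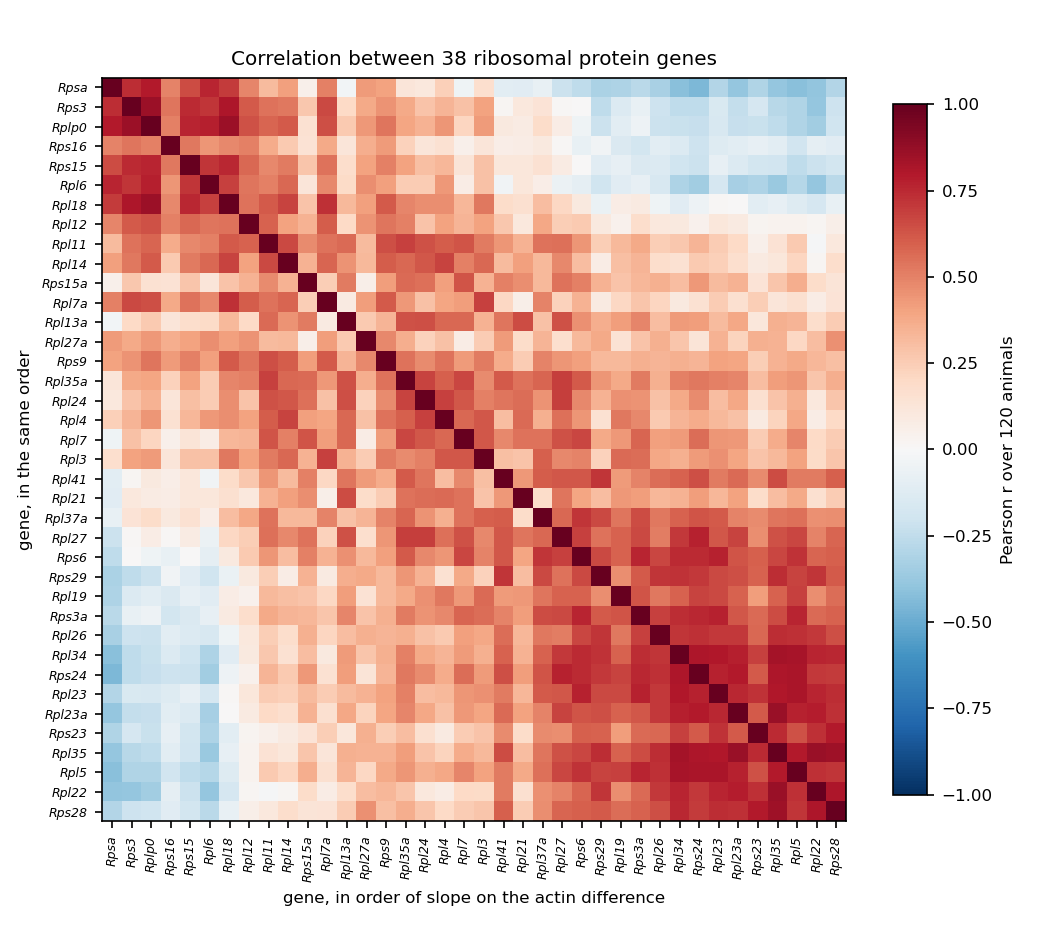
Pearson r over 120 animals between 38 ribosomal protein genes with a mean of at least 11, both axes in order of slope on the actin difference, red for positive and blue for negative values. The falling genes at the upper left (median r 0.669) and the rising genes at the lower right (median r 0.681) form separate blocks, with a median of -0.135 between them. The genes were sorted by slope in the same animals, so the blocks follow in part from the order.

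The pairs of largest r joined genes within a block, and since they were picked by r they are given without p-values. They were Rpl22 and Rpl35 (r = 0.863, rho = 0.750), Rpl23a and Rpl35 (r = 0.861, rho = 0.744), and Rpl18 and Rplp0 (r = 0.856, rho = 0.698). Then came Rplp0 and Rps3 (r = 0.854, rho = 0.730), Rpl35 and Rps28 (r = 0.851, rho = 0.750), and Rpl34 and Rpl35 (r = 0.835, rho = 0.739). Rpl23a and Rpl35 are neighbours at the exit tunnel, where the signal recognition particle docks. All 6 were positive within each of the 10 sets and lay between 0.800 and 0.844 without animal 63. The most negative pairs crossed the blocks or involved a paralog. They were Rpl37-ps2 and Rps3 (r = -0.548), Rpl22 and Rpl7l1 (r = -0.472), and Rps24 and Rpsa (r = -0.447).

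Of single members, Rpl35a had the largest r with the mean of the other members (0.782), followed by Rpl27 (0.760) and Rps6 (0.759). Rpsa had the smallest r among those with a mean of at least 11 (0.0531). Without animal 63 the values were 0.621, 0.602, 0.669 and -0.0992, and the order changed, with Rpl37a highest (0.694), then Rps6 and Rps3a (0.627). Among genes that are no members, the closest to the members' mean over 120 animals was Atp5pd, a subunit of ATP synthase (r = 0.785, rho = 0.620, and r of 0.634 without animal 63). It was followed by the proteasome gene Psma5 (0.767), the translocon gene Sec61g (0.764), Mrps23 (0.758), the RNA polymerase subunit gene Polr1d (0.740), Sec11a (0.739), Pigx (0.739), Rack1 (0.737), Tomm7 (0.736) and Chmp2a (0.726). Without animal 63 the r of these 10 genes ran from 0.527 (Sec11a) to 0.656 (Sec61g). The order changed, with Sec61g and Tomm7 (0.638) above Atp5pd. Rack1 is itself a protein of the 40S subunit. The 5S ribosomal RNA control of the array ran from 5.22 through 5.87 to 6.57, and its r with the members' mean was 0.0896 (rho 0.0987).

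Whole eyes hold several tissues, and each tissue was followed by a score, the mean of its marker genes after scaling each to its SD. In such bulk samples fewer cells of a type and less RNA per cell cannot be told apart. Slopes on the scores were tested with limma, 1 fit for each of 10 scores. The other genes of like signal include markers of some scores, such as Cryaa, Sag and Krt12, which go with their own score by construction. How far they raise the shares given for those genes was not tested. The smallest adjusted p of any member and score was that of Rpl3l with the score of 21 skeletal and extraocular muscle markers, which ran from -2.63 to 1.54. Its slope was 0.22 ± 0.016 per unit of score (SE, n = 120, limma adjusted p = 1.00e-23). The correlation was 0.804 (rho = 0.817), positive in all 10 sets (0.641 to 0.932). It was 0.791 without the 2 animals whose Rpl3l level lay farthest from the median, and 0.807 without animal 63. Its permutation p of 1e-05 (two-sided, 100000 permutations within sets) was the smallest they can give, and 1.39e-05 after adjustment over 32 relations. Rpl3 itself had r of 0.165 (rho = 0.110, permutation p = 0.115, adjusted 0.136). Its r was 0.0727 without animals 63 and 15, whose Rpl3 level lay farthest from the median, and 0.0662 without animal 63 alone. In all, 4 members rose with the muscle score (background 24.6%, and 19.4% of the other genes of like signal): Rpl3l, Rps13, Rpl4 and Rpl19. None fell (background 3.07%). Without animal 63 the count of rising members was 1 (background 10.2%, and 10.5% of those of like signal).

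**Figure D5:**
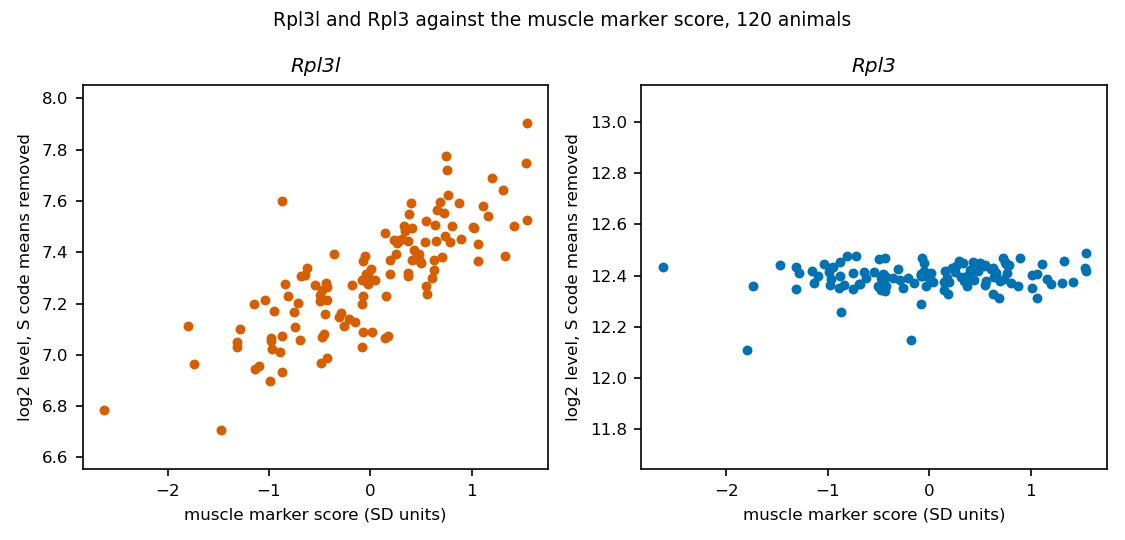
Log2 level of Rpl3l (left) and Rpl3 (right), S code means removed, against the muscle marker score (mean of 21 SD-scaled markers), 1 point for each of 120 animals and equal spans on both vertical axes. Rpl3l climbs with the score (r = 0.804), while the points of Rpl3 lie nearly level (r = 0.165).

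With the lens score, built on crystallins and fibre cell genes, 24 members rose (background 10.6%), led by Rplp0 (0.08 ± 0.012 per unit of score), Rps3 (0.07 ± 0.012) and Rpsa (0.07 ± 0.020). The share among the other genes of like signal, which include crystallin markers of the score itself, was 54.8%. No member fell (background 2.24%). The count of rising members was 17 without animal 63, beside 6.51% of all genes and 41.9% of those of like signal. It was 9 without animals 63 and 15 (2.16% and 28.2%), and 4 with array medians subtracted (0.357% and 21%). With all animals in, it held all 14 uncalled members with a mean of at least 11 and 7 of the 8 falling ones, but 2 of the 16 rising ones. The smallest slopes called were those of Rps6, Rpl41 and Rpl37a (0.02 to 0.03). The actin difference had r of -0.217 with this score, and with it as a covariate 27 members rose, beside 7.63% of all genes and 53.2% of those of like signal.

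With the ocular surface score, from keratin and other epithelial genes, 20 members rose (background 23%), and 48.4% of the other genes of like signal did. They included all 8 falling members and none of the 16 rising ones. Rpsa (0.11 ± 0.019), Rpl7l1 (0.10 ± 0.014) and Rpl18 (0.09 ± 0.011) led, and Rpl27a, Rpl35a and Rpl7 had the smallest slopes called. The actin difference had r of -0.271 with this score, and with it as a covariate 30 members rose, beside 29.9% of all genes and 47.6% of those of like signal. No member fell with all animals in (background 7.32%). Without animal 63, 14 rose, beside 14.5% of all genes and 35.5% of those of like signal, and 7 fell, beside 18.1% and 11.3%.

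With the rod score 6 members rose (background 8.83%) and 6 fell (background 13%). Of the other genes of like signal, 38.7% rose and 4.84% fell. Rps3 (0.06 ± 0.013), Rpl7l1 (0.05 ± 0.015) and Rpsa (0.05 ± 0.020) rose, and Rpl37-ps2, Rpl3l and Rps13 fell (-0.10, -0.09 and -0.07). Of the falling block 5 of 8 rose, and of the rising block 3 of 16 fell. With the actin difference as a covariate 1 rose and none fell (backgrounds 4.93% and 3.93%), beside 26.6% and 1.61% of those of like signal. Without animal 63, 4 rose and 16 fell (backgrounds 8.52% and 25.4%), beside 33.9% and 13.7% of those of like signal.

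With the scores of pigment cells, fibroblasts and the cell cycle, 29, 25 and 29 members rose (backgrounds 47.5%, 46% and 46.3%). Of the other genes of like signal, 48.4%, 37.9% and 40.3% rose. Without animal 63 the counts were 14, 8 and 12, and the backgrounds fell too, to 19.4%, 25.7% and 22.9%. The shares among those of like signal were then 16.1%, 18.5% and 14.5%. With all animals in, all 16 rising members were called for both the pigment and the cell cycle score. So were 12 and 9 of the 14 uncalled members with a mean of at least 11, and 0 of the 8 falling ones. The actin difference, by which the blocks were sorted, had r of 0.150, 0.345 and 0.246 with the pigment, fibroblast and cell cycle scores. With it as a covariate 29, 20 and 30 members rose, beside 45.8%, 33% and 39.5% of all genes. Of those of like signal, 53.2%, 36.3% and 34.7% then rose. Counts by block were not taken with this covariate. Without animal 63 the totals of 14 and 12 lie below 16, so not all rising members were then called. Rps27l, Rpl23a and Rpl5 had the largest slopes on the pigment score (0.08, 0.06 and 0.06), and Rpl37a, Rps29 and Rps23 the smallest called (0.03 each). Rps13, Rpl3l and Rpl37-ps2 had the largest on the fibroblast score (0.11, 0.11 and 0.09), on which Rpl35a and Rpl41 rose least and Rps3 alone fell (background 9.97%). Rpl26l1, Rps13 and Rps27l led on the cell cycle score (0.11, 0.11 and 0.09), where Rpl3, Rpl19 and Rps9 had the smallest slopes called. No member fell with the pigment or cell cycle score with all animals in (backgrounds 10.9% and 10.1%). Without animal 63, 1 fell with the pigment score, 5 with the fibroblast score and 4 with the cell cycle score (backgrounds 4.16%, 7.6% and 6.81%).

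With the remaining scores few genes of any kind were called, members included. With lacrimal and Harderian gland markers 5 members rose (10.9%, background 7.84%, and 9.68% of the other genes of like signal). They were Rps9, Rpl18, Rps16, Rpl14 and Rpl7a. Without animal 63, 1 rose (background 4.25%, and 4.03% of those of like signal). None fell with all animals in (background 0.519%). Animal 77 had the highest gland score, 3.83, and the next highest was 1.37. Animal 77 also had the highest mean shift of the 38 members with a mean of at least 11, at 0.102. The gland slopes without animal 77 alone were not tested. With macrophage and microglia markers 2 rose (background 9.21%), Rpl37-ps2 (0.18 ± 0.045) and Rpl3l (0.16 ± 0.033), and none fell (background 0.657%). With red blood cell markers Rpl7 fell (-0.03 ± 0.0079, limma adjusted p = 0.0165, background 0.0974%), and none rose (background 0.178%).

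No member had the shape that a single locus of large effect gives in an F2, which is 3 levels at 1:2:1. A mixture of this kind was called where its BIC beat the best single distribution by over 10, and 0 of 46 members passed, against a background of 0.138% (17 genes). Single distributions other than a normal were fitted only where the BIC difference from a normal passed 10. Of the members this held for Rpsa, at 10.97 from a normal but -17.1 from the best single distribution. Next were Rps3 at 7.66 and Rplp0 at 5.33 from a normal, both under the threshold. Of simulated mixtures, 18.5% were called with steps of 3 SD between levels and 93% with steps of 4 SD, so loci of smaller effect would mostly be missed by this call.

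Other genes of ribosome production and translation were followed by fixed lists. In the list of translation factors and other TOP messages, 16 of 23 genes were above the filter, with a median SD of 0.0825. With the actin difference 6 rose and 3 fell (37.5% and 18.8%). For this and the lists below, the backgrounds over all genes were 47.7% and 16.9%. Slopes ran from Eef1g (-0.32 ± 0.052) and Eef2 (-0.26 ± 0.083), both of elongation, to Vim (0.31 ± 0.046) and Eif3h (0.32 ± 0.047). Of 27 assembly genes 16 rose and 5 fell (59.3% and 18.5%). Nucleolin (Ncl) was at -1.04 ± 0.11 and Eif6 at -0.39 ± 0.059, and Rrs1 and Lyar at 0.55 ± 0.12 and 0.57 ± 0.084. Of 16 genes of ribosomal RNA synthesis 8 rose and 2 fell (50% and 12.5%). Slopes ran from Taf1d (-1.41 ± 0.30) and Polr1f (-1.31 ± 0.29) to Gtf3a (0.48 ± 0.095) and Ttf1 (0.71 ± 0.11).

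Of 12 growth control genes 7 rose and 2 fell (58.3% and 16.7%). Slopes ran from the translation repressor Eif4ebp2 (-2.71 ± 0.35) and Eif4ebp1 (-0.32 ± 0.064) to the S6 kinase Rps6kb1 (0.69 ± 0.082) and Tsc1 (0.71 ± 0.10). Of 73 mitochondrial ribosomal protein genes 46 rose and 2 fell (63% and 2.74%), and Mrpl39 (0.88 ± 0.095) and Mrps35 (0.87 ± 0.13) rose most. The median SDs of these lists were 0.120 for assembly, 0.130 for ribosomal RNA synthesis, 0.118 for growth control and 0.112 for mitochondrial ribosomal proteins, beside 0.0699 for the members. Their median signals were lower, at 8.001, 6.433, 7.95 and 8.245, beside 12.01 for the members. A strong signal goes with a small SD on these arrays, so these SDs do not compare the lists at like signal. The members with a mean under 11 had a median SD of 0.186. With animal 63 in, the median r with the members' mean was 0.502 for the TOP list and 0.461 for mitochondrial ribosomal proteins. It was 0.395 for assembly, 0.329 for growth control, 0.294 for ribosomal RNA synthesis and 0.269 over all genes. The L code test called Nop58, Polr3a and Mrps18b, 1 gene each in the assembly, ribosomal RNA and mitochondrial lists, and none in the others. These are 3.7%, 6.25% and 1.37% of their lists, against a background of 5.35%.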

How the data were processed

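Expression in the eyes of 120 rats was read from 1 table. The authors deposited log2 values made by RMA, per the submitters' processing notes, with no version given; the sources used here give neither array annotation nor genome build. Leaving out controls, 31042 probe sets remained, 20832 of them with 1 symbol, 436 with several and 9780 with none. Symbols came from the platform annotation, updated by Entrez number through RefSeq (GRCr8), in which 48 of 50 members were found. The files were already normalized, so no further scaling was applied.

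The tests ran on 23326 probe sets, those whose mean reached the 25th percentile (4.283). S code means were removed, or the S code was a covariate. Tests used limma 3.58.1 in R 4.3.3 with Benjamini-Hochberg adjustment over all 23326 probe sets, and counts were taken over 1 probe set per gene. The labels do not explain the codes. The p-values measure a spread that joins animals and single arrays, and the number of arrays limits the precision.

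On simulated data over 23326 probe sets, with an effect SD equal to the residual SD, 97% were recovered in the S code test, 96% in the L code test and 100% in the slope test. At 0.5 these were 40.5%, 12% and 95.5%.

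Named members were those of largest and smallest SD, F, slope and r, the paralogs, members with several probe sets and the 10 closest other genes. The members and lists were chosen with earlier results of these data known. The alternatives were arrays left out (animals 63 and 15, the 3 rescanned arrays, each S code), no set removal, no filter, array medians subtracted, the actin difference as covariate, 5 principal components removed, a second probe set, structural members only, and other thresholds and measures. The median r of the 38 members of strong signal, and the blocks of members by actin slope, were added after seeing the data.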

Additional observations from a re-analysis of the deposited data

How the results depend on the processing

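The slopes of Rpl5, Rpl35, Rps28, Rplp0, Rps3 and Rpsa on the actin difference and of Rpl3l on the muscle score kept their sign under the alternatives run for them. Some other values turned. The median r between rising and falling members was -0.135, and 0.159 with the actin difference regressed out. Without animal 63 the r with the other members turned from 0.0531 to -0.0992 for Rpsa and from 0.100 to -0.0883 for Rpl7l1, and the second Rpl7l1 probe set turned the r with the actin difference from -0.554 to 0.498. The count of members ranging at least 2-fold, 5 with all animals, was 1 over structural members alone, 0 with the 5 lowest and 5 highest animals set aside, 3 with 5 principal components removed, and 3 to 5 when each S code was left out in turn. The median r between members, 0.281, was 0.181 as Spearman's rho, 0.144 without animal 63, 0.156 without animals 63 and 15, 0.145 without the 3 rescanned arrays, and 0.149 to 0.316 when each S code was left out; the lowest came without set 3, which holds animal 63. The calls over the 10 tissue scores, 152 in all, were 94 without animals 63 and 15 and 74 to 155 when each S code was left out. The L code test called 1 member with set means left in (Rpl24, limma adjusted p = 0.0201) and 1 without set 4 (Rpl13a, limma adjusted p = 0.0473), and otherwise none. The cause of these moves was not tested. The counts for the S code test and the actin difference, the median SD and the mixture count stayed within 1.5 times under the alternatives run. No paired analysis was possible because the labels form 1 group. Removal of 5 principal components was run for SD, range and r alone.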
